A study of Mus musculus with 16 samples.

Results

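The genes described here are 10 genes whose products carry cells into and through the division cycle: Ccnd1, Ccne2, Mcm2, Mcm6, Rrm2, Top2a, Ccna2, Cdk1, Ccnb1 and Mki67. They were chosen by name, as a panel of proliferation genes known from regenerating liver, and each was found once among the 57010 genes of the deposited table. Their levels were read in liver RNA in 16 libraries from male wild-type C57BL/6J mice, in 4 groups of 4. Control mice (27 to 30) were set against mice given CdCl2 (Cd 1, 2, 5 and 6), mice fed selenomethionine (Se 39, 40, 41 and 44) and mice given both (Cd+Se 13 to 16). CdCl2 was injected daily into the peritoneum at 1.25 mg/kg for the last 7 days, and SeMet was fed at 2 ppm for 3 months. The study's methods give 1 age range, of young adults, for all mice. What the control mice were fed and injected with is not given in the sources used here. The libraries are bulk liver RNA, so fewer cells of a type and less RNA per cell cannot be told apart. The labels give each library a number of its own, with the title naming a rep1 and a rep2 under it, and do not say that each number is a separate mouse, so p-values measure the spread between these libraries.

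Hepatocytes of an adult liver are mostly out of the cycle, and can re-enter it after injury or loss of tissue. Cyclin D with its kinase partners starts the passage from G1, cyclin E and then cyclin A carry cells into S phase, the MCM ring unwinds DNA at origins, and cyclin B with Cdk1 drives mitosis. E2F factors switch on many S phase genes, and the DREAM complex, which binds CHR elements, holds late cell cycle genes down in resting cells. Cadmium is taken up by the liver, where metallothioneins bind it.

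Levels are TPM, which are scaled to gene length and to the same total in each library, so they can be compared between genes but keep no sequencing depth. Fold changes were estimated with limma on log2(TPM + 1), which understates the change of genes at low TPM, over the 17863 genes whose mean reached 0.1 TPM. All 10 genes passed that minimum. The mean of Mki67, the lowest, was 0.331 TPM over the 16 libraries, and that of Ccnd1, the highest, was 8.29 TPM. Mki67, Top2a, Ccnb1, Ccna2 and Mcm2 had means under 1 TPM, and Cdk1, Ccnd1, Ccne2, Mcm6 and Rrm2 had means of 1 TPM or more. The hepatocyte marker Alb had a mean of 46318 TPM. The metallothionein mRNA Mt1 was between 50.91 and 221.04 TPM in control livers, 64.34 and 431.03 in Se, 3178.11 and 4899.18 in Cd, and 3621.35 and 6070.32 in Cd+Se, so every liver labelled as injected stood above every liver that was not.

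The promoters of 7 of the 10 genes are in the RefSeq promoter table used here (GRCm38.p6, 250 bases before to 50 after each start site); Ccna2, Ccnd1 and Ccne2 have no entry in it. Stretches of 4 are printed. Mcm2 and Rrm2 were called lower in Cd against control below, Cdk1 was called only with Cd averaged over both diets, a comparison added after the data were seen, and Top2a, called in no comparison, holds the most motifs. Each reads 5′ to 3′ along its gene, and capitals mark matches, on either strand, to the CHR element (TTTGAA, which reads TTCAAA on the other strand, or TTCGAA), the CCAAT box (CCAAT, which reads ATTGG on the other strand) and the E2F site (TTTGGCGC, TTTCCCGC, TTTCGCGC or TTTGCCGC).
Mcm2, chr6:88898835-88898965, minus strand: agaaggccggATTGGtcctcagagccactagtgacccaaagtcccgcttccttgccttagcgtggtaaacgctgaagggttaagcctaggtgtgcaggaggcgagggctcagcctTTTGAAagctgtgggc
Rrm2, chr12:24708194-24708218, plus strand: tcagcggcgtCCAATgggaggcgag
Cdk1, chr10:69352913-69353053, minus strand: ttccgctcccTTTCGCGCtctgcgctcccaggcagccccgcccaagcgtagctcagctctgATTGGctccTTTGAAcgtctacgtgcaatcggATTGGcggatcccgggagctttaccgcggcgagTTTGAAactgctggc
Top2a, chr11:99024197-99024388, minus strand: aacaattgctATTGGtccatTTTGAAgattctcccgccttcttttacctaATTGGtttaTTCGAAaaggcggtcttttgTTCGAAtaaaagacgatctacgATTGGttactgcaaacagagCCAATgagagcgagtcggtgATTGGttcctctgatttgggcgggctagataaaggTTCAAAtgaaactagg

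Over the whole window of 300 bases, a CCAAT box was found in all 7 promoters, against 37.4% of the 32851 promoters in the table. A CHR element was found in 4, those of Mki67, Top2a, Cdk1 and Mcm2, against 19.2% of all promoters. An E2F site was found in 2, those of Cdk1 and Mcm6, against 2.26%; Mcm6 holds 3, of which a pair overlap on opposite strands. The motifs were not tested against the levels, and a match is a description of the letters only. Mcm2 holds CHR and CCAAT matches, Rrm2 a CCAAT box alone and Cdk1 all 3 kinds.

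Cd was set against control to ask how Cd exposure bears on this program. In Cd livers, Ccnd1, Rrm2 and Mcm2 were lower than in control livers, and none of the 10 genes was called higher. In the other 7 genes no difference was detected, including Mki67 and Top2a, the usual tissue markers of cycling cells. By limma with Benjamini-Hochberg adjustment over all 17863 genes, 3 of the 10 were called at an adjusted p under 0.05, all lower. The background is high: 20.1% of all genes tested were called in this comparison and 15.9% were called lower, so 3 of 10 stands near the share of any genes. The split of those calls depends on the scaling: 757 genes were higher and 2834 lower here, and 2445 higher and 1971 lower when each library was centred on its median. The median log2 fold change of the 10 was -0.0045, beside -0.08 over all genes.

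**Figure D1:**
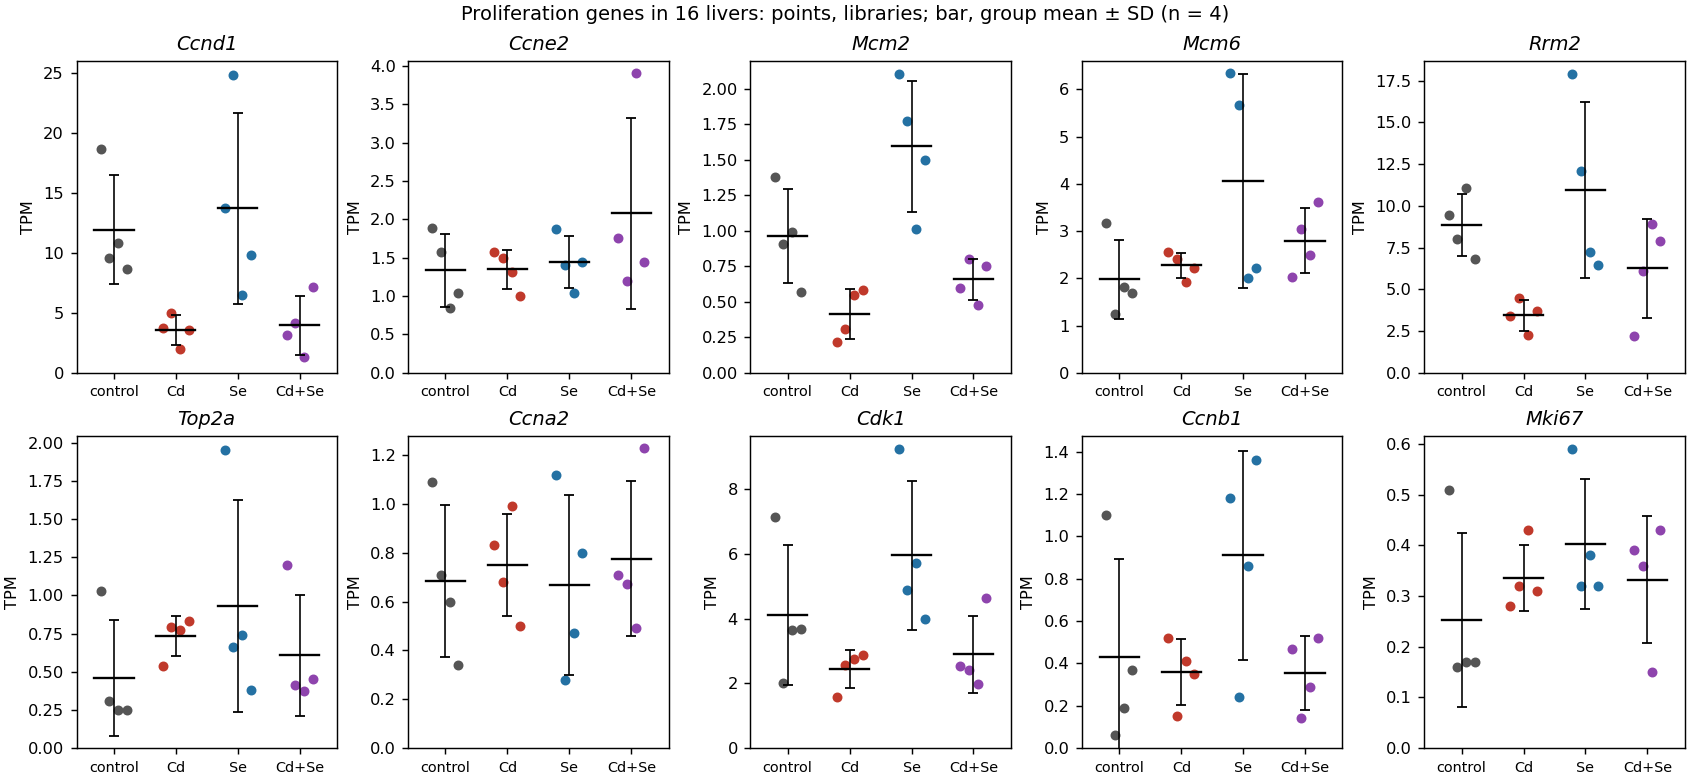
TPM of each of the 10 genes (vertical axes, from 0, scaled to each gene) in the 4 groups (horizontal axis). Points are libraries in number order, and bars the group mean ± SD (n = 4), cut at 0 for Ccnb1. Ccnd1 lies at 2.02 to 5.01 TPM in Cd livers and at 8.66 to 18.6 in control livers, while Ccna2 and Ccne2 overlap in all 4 groups.

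Ccnd1 (ENSMUSG00000070348, GRCm38 chr7:144929931-144939925, minus strand) encodes cyclin D1, which responds to growth signals in G1. Its levels were 18.6, 9.54, 10.83 and 8.66 TPM in control livers 27 to 30, and 3.76, 5.01, 2.02 and 3.54 TPM in Cd livers 1, 2, 5 and 6. All 4 Cd livers were under all 4 control livers, as for 20.3% of all genes tested. The Cd mean of 3.58 ± 1.23 TPM (SD, n = 4) was 0.301 of the control mean of 11.9 ± 4.55, and the log2 fold change was -1.48 (SE 0.39, limma adjusted p = 0.0152). In Cd+Se livers 13 to 16 it was 3.15, 4.19, 1.33 and 7.18 TPM, and in Se livers 39, 40, 41 and 44 it was 13.76, 24.78, 6.48 and 9.84 TPM. The Cd+Se livers were also wholly under the control livers, which 3.76% of all genes were, but the log2 fold change of -1.46 (SE 0.39, limma adjusted p = 0.131) did not pass the threshold. Of the 8 livers that received Cd, 1 (Cd+Se 16) was at or above the lowest of the 8 that did not. The order of the group means was Cd, Cd+Se, control, Se. Cd and Cd+Se overlap, as do control and Se.

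Rrm2 (ENSMUSG00000020649, GRCm38 chr12:24708241-24714146, plus strand) encodes the small subunit of ribonucleotide reductase, which supplies deoxynucleotides for replication. It was at 9.44, 8.04, 11.08 and 6.8 TPM in control livers and 3.39, 4.5, 2.24 and 3.69 TPM in Cd livers. Here too the groups did not overlap. The Cd mean of 3.46 ± 0.936 TPM (SD, n = 4) was 0.391 of the control mean of 8.84 ± 1.84, with a log2 fold change of -1.15 (SE 0.34, limma adjusted p = 0.0254). In Cd+Se livers it was 2.2, 6.07, 8.92 and 7.91 TPM, a spread that runs from the lowest value of all 16 libraries into the control range. In Se livers it was 17.88, 12.11, 7.24 and 6.46 TPM. For Cd+Se against Cd the log2 fold change was 0.61 (SE 0.34, limma adjusted p = 0.270), and without Cd+Se 13, its low liver, it was 0.97 (limma adjusted p = 0.0480).

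Mcm2 (ENSMUSG00000002870, GRCm38 chr6:88883474-88898780, minus strand) encodes a subunit of the MCM2-7 ring. Its levels were 1.38, 0.91, 0.99 and 0.57 TPM in control livers and 0.22, 0.31, 0.55 and 0.58 TPM in Cd livers. The groups overlap by 1 liver, Cd 6. The Cd mean of 0.415 ± 0.177 TPM (SD, n = 4) was 0.431 of the control mean of 0.963 ± 0.333, and the log2 fold change was -0.46 (SE 0.15, limma adjusted p = 0.0400), at levels where the added 1 TPM shrinks the difference. Levels were 0.6, 0.8, 0.48 and 0.75 TPM in Cd+Se livers and 2.1, 1.77, 1.01 and 1.5 TPM in Se livers. Every Cd+Se liver was under every Se liver, as for 2.91% of all genes tested. Mcm6 (ENSMUSG00000026355, GRCm38 chr1:128331590-128359664, minus strand), which encodes another subunit of the same ring, did not show this order. It was at 1.98 ± 0.836 TPM in control livers, 2.28 ± 0.270 in Cd, 2.80 ± 0.687 in Cd+Se and 4.06 ± 2.27 in Se (SD, n = 4 each), and its Cd against control log2 fold change was 0.17 (95% confidence interval -0.41 to 0.75).

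The calls in Cd against control depended on which libraries were included. Without control 27 none of the 10 genes was called, and the limma adjusted p of Ccnd1 was 0.0515, of Rrm2 0.0582 and of Mcm2 0.121. Without Cd 5 none was called either, with limma adjusted p-values of 0.0548, 0.0814 and 0.0511. Without control 28 or without control 29, Ccnd1 alone was called. Calls over all genes fell in these fits as well, from 20.1% of those tested to 15.5% without control 27 and 14.3% without Cd 5. The share was 14.2% without control 28 and 13.3% without control 29. Mcm2 was the least firm, over the threshold in 11 of 24 alternatives, among them without Cd 1 (limma adjusted p = 0.101), without Cd 2 (0.0894), with median centring (0.220) and with only the groups compared (0.0566). The log2 fold changes kept their sign in each of these fits, between -1.71 and -1.26 for Ccnd1 over all alternatives, -1.35 and -0.94 for Rrm2, and -1.06 and -0.29 for Mcm2.

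Some libraries stood apart in the levels of the 10 genes or in measures over all genes. Control 27 was the highest of the 4 control livers in 9 of the 10 genes, all but Rrm2. Se 39 was the highest Se liver in 8 of the 10, and the highest of all 16 in 6 (Mki67, Top2a, Cdk1, Mcm2, Mcm6 and Rrm2). Cd+Se 16 was the highest of its group in 6. Cd 5 had the lowest median TPM over the genes tested, 2.07, and the highest share of its TPM in mitochondrial genes, 22.24%, and Cd 6 followed with 2.5 and 18.04%. The other 14 libraries lay between 2.79 and 3.53 TPM and between 12.85% and 17.29%. The part of these values in the results was not tested.

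Top2a, Mki67, Cdk1 and Ccnb1, which act late in the cycle, were not called in Cd against control. Top2a (ENSMUSG00000020914, GRCm38 chr11:98992943-99024189, minus strand), which encodes the topoisomerase that untangles replicated DNA, was at 1.03, 0.31, 0.25 and 0.25 TPM in control livers and 0.54, 0.79, 0.77 and 0.83 TPM in Cd livers. Apart from control 27, every control liver was under every Cd liver. The log2 fold change was 0.28 (limma adjusted p = 0.422), and 0.45 (limma adjusted p = 0.183) without control 27. Mki67 (ENSMUSG00000031004, GRCm38 chr7:135689784-135716361, minus strand), whose protein Ki-67 coats mitotic chromosomes, was at 0.51, 0.16, 0.17 and 0.17 TPM in control livers and 0.28, 0.32, 0.43 and 0.31 in Cd livers. It has the same form: control 27 above the Cd livers and the other controls under them. Its log2 fold change was 0.10 (limma adjusted p = 0.552).

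Cdk1 (ENSMUSG00000019942, GRCm38 chr10:69335146-69352938, minus strand), the kinase of mitotic entry, was at 7.15, 2.01, 3.66 and 3.67 TPM in control livers, 1.59, 2.56, 2.76 and 2.87 in Cd, 2.55, 2.42, 1.98 and 4.65 in Cd+Se, and 9.26, 4.88, 5.71 and 4 in Se. Its group means ran in the same order as those of Ccnd1, Rrm2 and Mcm2, with neighbours that overlap. Set against control, its log2 fold change in Cd was -0.50 (SE 0.29, limma adjusted p = 0.246). Ccnb1 (ENSMUSG00000041431, GRCm38 chr13:100778650-100786570, minus strand), which encodes its partner cyclin B1, was at 0.430 ± 0.464 TPM in control livers, 0.358 ± 0.155 in Cd, 0.355 ± 0.174 in Cd+Se and 0.910 ± 0.492 in Se (SD, n = 4 each). Control 27, at 1.1 TPM, and 3 of the 4 Se livers, at 0.86 to 1.36 TPM, were the highest.

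Ccna2 (ENSMUSG00000027715, GRCm38 chr3:36564865-36572150, minus strand), which encodes cyclin A2, and Ccne2 (ENSMUSG00000028212, GRCm38 chr4:11191351-11204779, plus strand), which encodes cyclin E2, overlapped in all 4 groups. The group means of Ccna2 lay between 0.668 TPM in Se and 0.775 in Cd+Se. Those of Ccne2 lay between 1.34 TPM in control and 2.08 in Cd+Se, where liver 15 at 3.91 TPM stood above the other 3 at 1.2 to 1.76. In Cd against control their log2 fold changes were 0.07 (95% confidence interval -0.30 to 0.43) and 0.02 (-0.44 to 0.48).

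Cd+Se was set against Cd to ask what dietary Se changes under Cd. None of the 10 genes was called, where 9.29% of all genes were. For Ccnd1 the log2 fold change was 0.02 (95% confidence interval -0.82 to 0.85), so a difference of that size in either direction lies within the error. For Mcm2 it was 0.23 (-0.09 to 0.55) and for Rrm2 0.61 (-0.10 to 1.33). Means were higher in Cd+Se than in Cd in 7 of the 10 genes. The median log2 fold change of the 10 was 0.08, beside 0.10 over all genes. With median centring these medians were -0.10 and -0.08. The Cd livers serve in this comparison as well as in Cd against control, so the values of both are not independent.

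None of the 10 was called in Cd+Se against control, where 0.549% of all genes were. None was called in Se against control, where limma called 0 of 17863 genes (0%) and 718 had an unadjusted p under 0.05. Mcm2 and Mcm6 were the 2 of the 10 at that unadjusted level, with log2 fold changes of 0.40 (SE 0.15) and 0.68 (SE 0.27). Means were higher in Se than in control livers in 9 of the 10 genes, and the exception was Ccna2. The groups overlap in all 10, and Se 39 carries the highest value in 6.

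The same Cd injection was given on the SeMet diet, and Cd+Se was set against Se. None of the 10 genes was called, where 0.789% of all genes were. Mcm2 had a log2 fold change of -0.63 (SE 0.15, limma adjusted p = 0.0691) and Ccnd1 one of -1.56 (SE 0.39, limma adjusted p = 0.0911). At an unadjusted limma p under 0.05 were 5 of the 10, Cdk1, Ccnb1, Ccnd1, Mcm2 and Rrm2, all lower in Cd+Se, beside 11.2% of all genes. Without the diet, the log2 fold changes were -0.46 for Mcm2, -1.48 for Ccnd1, -1.15 for Rrm2, -0.50 for Cdk1 and -0.03 for Ccnb1. The difference between the diets, the interaction of Cd and Se, was called for none of the 10 and for 0.308% of all genes. For Ccnd1 it was -0.08 (95% confidence interval -1.26 to 1.10), for Mcm2 -0.17 (-0.62 to 0.28), for Rrm2 0.42 (-0.59 to 1.43) and for Cdk1 -0.33 (-1.19 to 0.53). These intervals are wide, and a p over the threshold does not show that the diets gave alike changes.

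**Figure D2:**
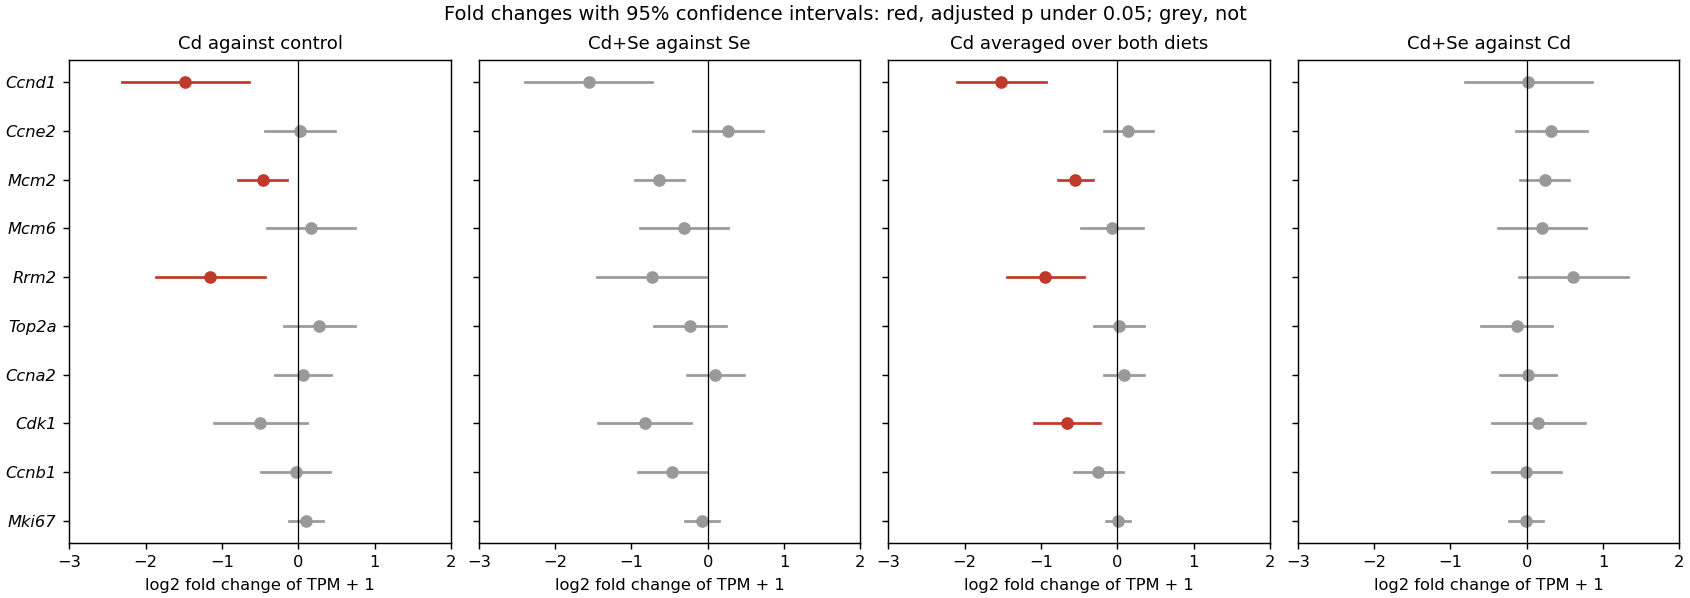
Log2 fold change of TPM + 1 (horizontal axes) of each gene (vertical axis) in 4 comparisons, with 95% confidence intervals from limma. Red marks an adjusted p under 0.05 and grey the rest. Ccnd1 lies at -1.48 without and -1.56 with SeMet in the diet, and at 0.02 between the Cd groups.

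After these values were seen, the effect of Cd was also averaged over both diets, which sets the 8 injected livers against the 8 others within diets. In it 4 of the 10 genes were called, all lower, where 17.1% of all genes were called and 12.5% were called lower. These were Ccnd1 (log2 fold change -1.52, SE 0.28, limma adjusted p = 0.00260), Mcm2 (-0.55, SE 0.11, limma adjusted p = 0.00357), Rrm2 (-0.94, SE 0.24, limma adjusted p = 0.0148) and Cdk1 (-0.66, SE 0.20, limma adjusted p = 0.0349). Ccnd1, Mcm2 and Rrm2 stayed under the threshold in every alternative run, including without control 27 or Cd 5. Cdk1 went over it in 14 of 24, among them without control 27 (limma adjusted p = 0.0636) and without Se 39 (0.0666). The other 6 were not called. Their log2 fold changes were -0.25 for Ccnb1 (95% confidence interval -0.57 to 0.07), -0.07 for Mcm6 (-0.48 to 0.33), 0.15 for Ccne2 (-0.18 to 0.47), 0.08 for Ccna2 (-0.18 to 0.34), 0.02 for Top2a (-0.31 to 0.35) and 0.01 for Mki67 (-0.14 to 0.17).

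The 10 genes varied together across the 16 libraries only in part. Over their 45 pairs, the Pearson correlation of log2(TPM + 1) had a median of 0.39. Mki67 and Top2a were most alike (r = 0.81), followed by Cdk1 and Mcm2 (0.80) and Ccnd1 and Mcm2 (0.78), and Ccnd1 and Ccne2 were least alike (-0.28). These are descriptions over libraries that share groups and, in control 27 and Se 39, high values of many genes. With the group means removed the median was 0.42 and the ranking changed: Mki67 and Cdk1 were most alike (0.84), followed by Mki67 and Top2a (0.77), while Mcm2 was at 0.557 with Cdk1 and 0.555 with Ccnd1. The mean of the 10 was also taken in each of the 16 libraries, with each gene scaled to the same spread. Outside the 10, the genes of the table most like it were Kif20a (r = 0.933), Dlgap5 (0.921), Ckap2l (0.901), Hmmr (0.882) and the long non-coding RNA ENSMUSG00000120992 (0.870). Among the 10 themselves r with that mean ran from 0.21 for Ccne2 to 0.87 for Cdk1. Kif20a was at 0.65 TPM in control 27 and 1.15 in Se 39, and at 0.16 to 0.26 in the other control livers.

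**Figure D3:**
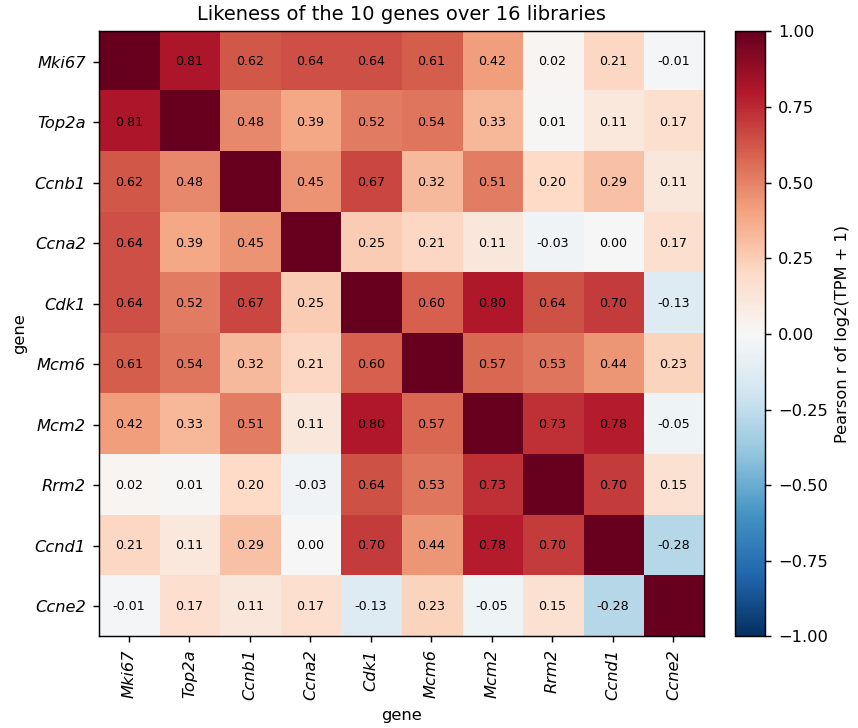
Pearson r of log2(TPM + 1) for each pair of the 10 genes (both axes) over the 16 libraries, with red for positive and blue for negative values. Mki67 with Top2a reaches 0.81, while Ccne2 reaches -0.28 with Ccnd1.

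Other genes of the cycle were read from 4 lists, written with earlier results of these data known. In Cd against control, 13 of their 141 genes tested were called, all lower, which is 9.22% beside the 15.9% of all genes called lower. Their median log2 fold change of -0.08 was that of all genes. In the replication list, of licensing factors and fork proteins, 10 of 41 were lower and none higher. The 4 largest were Rfc1, of the clamp loader, Tipin, of the fork protection complex, Orc2, of the origin recognition complex, and Cdt1, the licensing factor. Rfc1 fell from 6.83 ± 1.10 to 2.80 ± 0.584 TPM (SD, n = 4; log2 fold change -1.04, SE 0.14, limma adjusted p = 0.00034), Tipin had a log2 fold change of -0.93, Orc2 of -0.78 and Cdt1 of -0.75. In the list of G1 and S entry genes 2 of 25 were lower, Rbl2 (-0.63), which encodes the p130 pocket protein of resting cells, and E2f2 (-0.43), an activating E2F. Rbl2 is a brake and not a driver of the cycle. In the list of deoxynucleotide supply 0 of 10 were called by limma. Tk1, the most abundant, had a log2 fold change of -0.31 (limma adjusted p = 0.332) and Dtymk one of -0.06.

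The list of mitosis and cytokinesis was the largest, with 65 genes tested, and 1 was called. That was Wee1, the kinase that restrains Cdk1, lower at 3.83 ± 0.689 TPM in Cd than at 10.4 ± 1.58 in control (SD, n = 4; log2 fold change -1.24, SE 0.20, limma adjusted p = 0.0009). It too is a brake. Among 16 CDK inhibitors and other brakes, the antiproliferative gene Btg1 (0.84) and the atypical cyclin Ccng2 (0.80) were higher and the stress gene Gadd45a (-0.99) was lower, 3 of 16 where 20.1% of all genes were called. Quantile normalization gave 4 higher and 0 lower, and leaving out 1 library 1 to 2 higher and 0 to 1 lower. The direction of the 4 cell cycle lists depends on the scaling. The 13 lower and 0 higher calls became 12 and 5 with quantile normalization, and 8 and 6 when each library was centred on its median, which moved the median log2 fold change of all genes from -0.08 to 0.09. Without control 27 they became 9 lower and 3 higher, and the replication list alone went from 10 lower to 6.

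**Figure D4:**
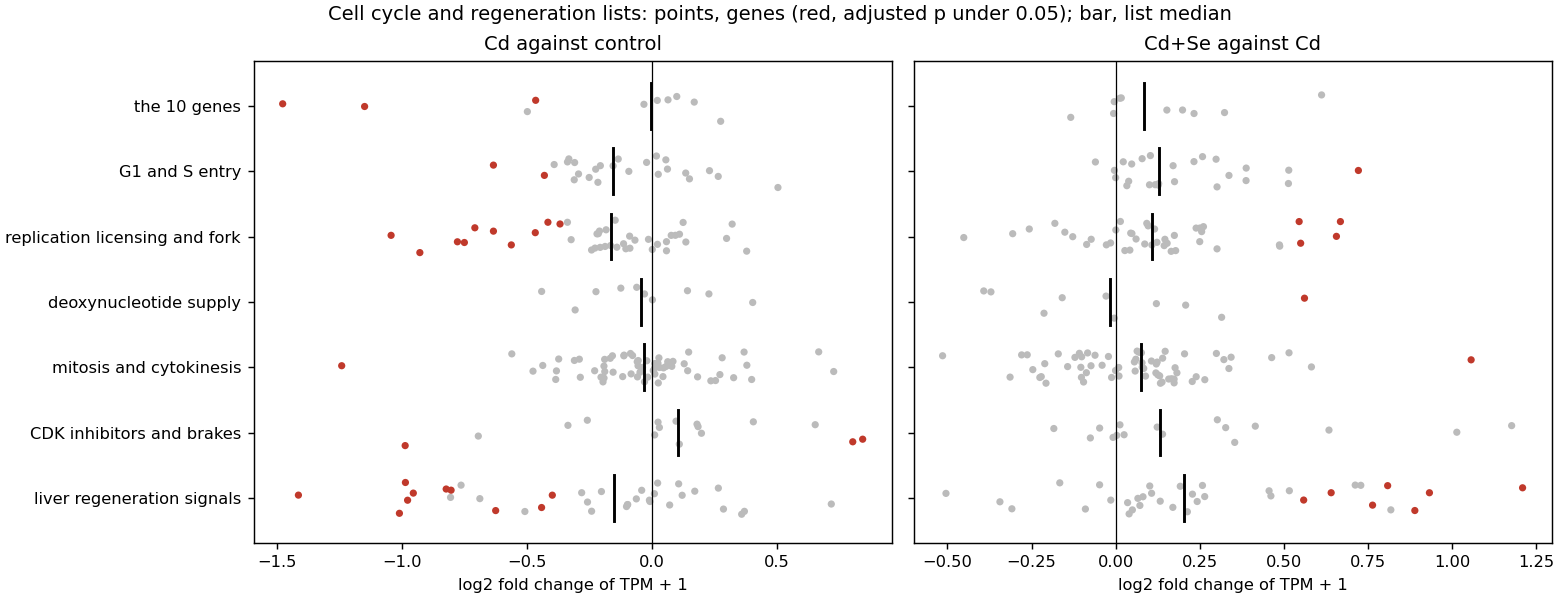
Log2 fold change of TPM + 1 (horizontal axes) of each gene of 7 lists (vertical axis) in Cd against control and in Cd+Se against Cd. Points are genes, red with an adjusted p under 0.05, and black bars are list medians. In Cd against control the replication list has 10 red points of 41 and the mitosis list 1 of 65.

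With SeMet in the diet of Cd-treated mice, 7 of the 141 genes of these lists were higher than in Cd and none lower, beside 9.29% of all genes called. They were Rfc1 (0.67), Tipin (0.66), Mcm4 (0.55) and Orc2 (0.54) of the replication list, Rbl2 (0.72), Wee1 (1.06) and Samhd1 (0.56), a phosphohydrolase that degrades deoxynucleotides. Wee1 was at 6.95 to 11.44 TPM in Cd+Se livers and at 3.04 to 4.58 in Cd livers. This comparison rests on the spread shared over all 4 groups: fitted on the Cd and Cd+Se libraries alone, limma called 3 of all 17863 genes, and none of the 141. Leaving out 1 library gave 4 to 9 higher, with 4 higher and 1 lower without Cd 5 and 4 higher without Cd+Se 14. Median centring gave 4 higher and 3 lower, and quantile normalization 3 and 2. Against control, none of the 141 was called in Cd+Se. The most abundant there were Cdk4 (0.15) and Ccnd3 (0.13) among G1 and S entry genes, Mcm10 (-0.14) and Pcna (0.10) in the replication list, Tk1 (0.01) and Dtymk (-0.22) in deoxynucleotide supply, Pttg1 (-0.12) and Cks2 (0.07) in mitosis, and Tob1 (0.14) and Gadd45g (0.32) among the brakes. Between the Cd groups none of the 16 brakes was called, with Tob1 at 0.02 and Gadd45g at 1.01 (limma adjusted p = 0.367).

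Signals that act on hepatocytes after tissue loss were read from a list of which 36 genes were tested. In Cd against control 10 were lower and none higher, beside the 15.9% of all genes called lower, and 5 were lower without control 28, without control 29 or without Cd 5. Quantile normalization gave 8 lower and 1 higher, and median centring 7 and 2. The 4 largest were Inhba (-1.41), which encodes the activin A chain, Tgfbr2 (-1.01), a receptor of TGF-beta, Rnf43 (-0.99), a Wnt feedback inhibitor, and Il6st (-0.98), the shared receptor of the IL-6 family known as gp130. Inhba and Tgfbr2 belong to growth restraint in hepatocytes, while Il6st carries a priming signal. Il6st was at 22.9, 22.63, 20.6 and 20.28 TPM in control livers and at 12.59, 12.36, 8.22 and 9.31 in Cd livers. All 4 Cd livers were under all 4 control livers, as for 20.3% of all genes tested. With the diet, 7 of 36 were higher in Cd+Se than in Cd livers, where 7.75% of all genes were, among them Met (0.93), the receptor of hepatocyte growth factor, Il6st (0.89) and Hgf (0.81), that growth factor itself. Il6st in Cd+Se livers was 24.07, 23.67, 15.63 and 18.72 TPM, above all 4 Cd livers. The share of all genes with that order was not counted. Without Cd 5 the 7 became 2, and with only these groups in the limma fit 0 of the 36 passed.

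Against control, 2 of the 36 were called in Cd+Se livers, both higher, where 0.409% of all genes were called higher. Without control 27 or control 29 neither was called. Plaur, which encodes the urokinase receptor, was among them, at 0.225 ± 0.073 TPM in control and 1.53 ± 0.758 in Cd+Se livers (SD, n = 4; limma adjusted p = 0.0183).

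Markers of the cells a liver sample can hold moved with Cd as well. Of 10 Kupffer cell and macrophage markers, 8 were lower in Cd than in control livers, where 15.9% of all genes were called lower. The count was 7 with either other scaling and 7 to 8 leaving out 1 library. Cd163 fell most (log2 fold change -2.56, SE 0.24, limma adjusted p = 3.9e-05), followed by Vsig4 (-1.96), Timd4 (-1.90) and Marco (-1.40). The list summed to 166.95, 202, 162.83 and 198.14 TPM in control livers, 107.27, 91.48, 83.02 and 117.19 in Cd, 158.85, 153.28, 132.19 and 161.06 in Cd+Se, and 114.16, 216.61, 189.96 and 127.92 in Se. Its most abundant gene is Lyz2, which other myeloid cells share, at 47.9 ± 7.51 TPM in control, 46.2 ± 7.61 in Cd and 83.9 ± 19.1 in Cd+Se livers (SD, n = 4). Between the Cd groups 2 of the 10 were higher in Cd+Se, Lyz2 (0.83) and Adgre1 (0.78), where 7.75% of all genes were called higher. With either other scaling it was 1, and in a limma fit of only these groups no marker of any list was called. Against control 4 were lower in Cd+Se, Cd163 (-2.22), Vsig4 (-1.74), Timd4 (-1.62) and Clec4f (-1.57), where 0.14% of all genes were called lower, and either other scaling gave 4 lower and 1 higher.

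**Figure D5:**
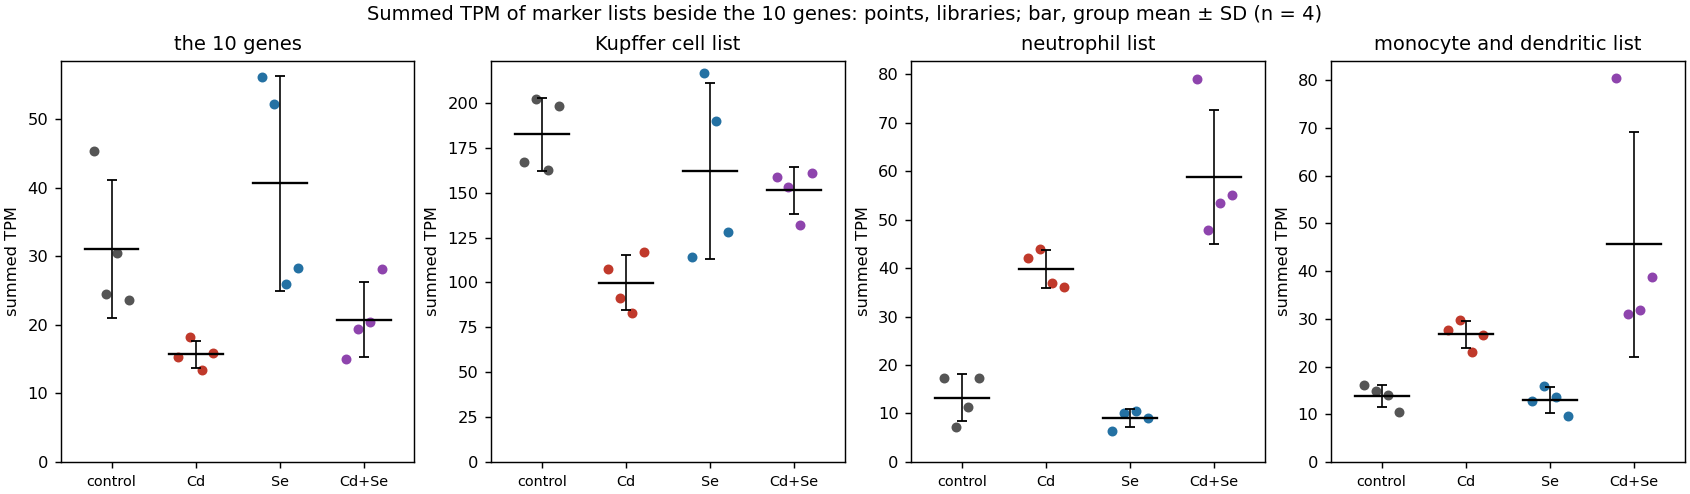
Summed TPM (vertical axes, from 0) of the 10 proliferation genes and of 3 marker lists in the 4 groups (horizontal axis). Points are libraries and bars the group mean ± SD (n = 4). The neutrophil list sums to 39.8 TPM in Cd and 13.3 in control livers on average. The sums of the 10 genes, 15.7 and 31.0, differ mostly through Ccnd1 (3.58 and 11.9) and Rrm2 (3.46 and 8.84), and 5 of the 10 had a higher mean in Cd.

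Of 10 neutrophil markers tested, 4 were higher in Cd than in control livers (4 to 6 leaving out 1 library), S100a8 (1.55), S100a9 (1.53), Retnlg (1.14) and Ngp (0.71), where 4.24% of all genes were called higher. Their list, led by S100a9, summed to 17.25, 7.23, 11.39 and 17.26 TPM in control livers, 42.16, 43.95, 36.89 and 36.03 in Cd, 79.08, 47.89, 53.34 and 55.06 in Cd+Se, and 6.35, 10.02, 10.55 and 9.09 in Se. Injected livers were above all others, an order whose share over all genes was not counted. The defining marker Ly6g had a mean under 0.1 TPM. In Cd+Se livers S100a9 (2.12), S100a8 (1.94) and Retnlg (1.64) were above control, where 0.409% of all genes were called higher. None was called against Cd, with S100a9 at 0.60 and S100a8 at 0.39. Of 9 monocyte and dendritic cell markers 4 were higher in Cd, S100a4 (1.31), Ly6c2 (0.66), Ccr2 (0.56) and Cx3cr1 (0.47). This list, led by Plac8, summed to 16.09, 14.81, 13.97 and 10.57 TPM in control livers, 27.57, 29.86, 22.98 and 26.7 in Cd, 80.5, 31.11, 31.96 and 38.88 in Cd+Se, and 12.85, 16.02, 13.66 and 9.55 in Se, and Xcr1 had a mean under 0.1 TPM. Injected livers were again above all others, with the share over all genes again not counted. The 4 became 1 without control 29 or without Cd 2, and 8 with median centring. Of the 9, 6 were higher in Cd+Se than in control livers, beside the same 0.409% of all genes. The largest were S100a4 (2.12), Ccr2 (1.09), Itgax (0.99) and Ly6c2 (0.86). Without control 29 the 6 became 3. In a limma fit of only these groups they became 0, and the 3 neutrophil calls became 1. Between the Cd groups 2 of the 9 were higher in Cd+Se, Itgax (0.55) and Itgam (0.38). Those 2 became 1 with quantile normalization and 0 with median centring, with a mean of at least 1 TPM or with only these groups in the fit, beside 7.75% of all genes called higher. Cd+Se 13, the highest in both lists, was also the highest Cd+Se liver in Top2a, at 1.2 TPM. The part of these cells in the levels of the 10 genes was not tested.

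Fewer calls were made in the other marker lists. Of 10 hepatocyte markers, with a median log2 fold change of -0.32 in Cd against control, 1 was lower, Cps1 (-1.36), the first enzyme of the urea cycle, which Cd+Se livers had more of than Cd livers (0.87). Of 10 endothelial markers, also with a median of -0.32, Stab1 was higher (1.13) and Kdr (-0.90) and Stab2 (-0.62) were lower, where 4.24% of all genes were called higher and 15.9% lower. The 2 lower calls became 0 with quantile normalization and without control 27, 28 or 29, Cd 5 or Cd 6, 1 with median centring and 4 with only the groups compared. Lyve1 was higher in Cd+Se than Cd livers (1.09). Reln (-0.93) was lower among 10 stellate cell and fibroblast markers and Krt23 (-0.35) among 7 of cholangiocytes, where median centring gave 0 calls and quantile normalization 2. By limma 0 of 9 erythroid, 0 of 13 T and NK cell, 0 of 9 B and plasma cell and 0 of 5 myeloid progenitor markers were called in Cd against control. Other settings called some: 1 progenitor and 1 B and plasma cell marker higher with either other scaling, 1 T and NK cell marker higher with median centring, and 2 progenitor markers higher and 1 erythroid marker lower with only the groups compared. The erythroid genes Hbb-bs (-0.01, SE 0.33) and Hba-a2 (-0.20, SE 0.31) were not called, and Gata1, Slc4a1, Ermap, Rhag and Tspo2 had means under 0.1 TPM. The T cell receptor gene Trac had 0.62 (limma adjusted p = 0.114) and Gzma 0.26, and the immunoglobulin genes Igkc 0.47 and Ighm 0.37. The progenitor list, led by Cebpe (0.48, limma adjusted p = 0.0954) and Kit (0.15), summed to 6.18 to 9.31 TPM in control and 11.49 to 14.66 in Cd livers, which do not overlap. How many of all genes have that order was not counted. Of these markers Elane, Mpo, Ctsg, Ms4a3 and Fcnb had means under 0.1 TPM, and Chil3, which mature myeloid cells also express, was higher in Cd+Se than in control livers (1.31, SE 0.26, limma adjusted p = 0.0311).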

How the data were processed

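Liver RNA-seq libraries were analysed, 16 in all and 4 per group, grouped by the treatment label of each sample. Per the file headers and its sums, the deposited table holds TPM to 2 decimals for 57010 genes, and each library has the same total up to rounding. Tools named in the submitters' processing notes are fastp, HISAT2 and StringTie, without versions; the build named there is GRCh38, although the table's identifiers are mouse Ensembl genes, so positions printed here are from GENCODE M21 (GRCm38), matched by identifier. TPM keep no depth, so the depth of each library is unknown and precision rests on the 4 libraries per group. Labels name no batch.

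log2(TPM + 1) of the 17863 genes whose mean reached 0.1 TPM was fitted with limma 3.58.1 in R 4.3.3 (4 group means, eBayes with trend), with Benjamini-Hochberg adjustment and a threshold of 0.05. The lower minimum was taken so that all 10 genes enter the fit. Of 7 comparisons, the 1 averaged over diets was added after the data were seen. All 10 genes are named. Also named were the 5 genes outside the 10 that were most like the mean of the 10. Of each list, up to 4 genes past the threshold with the largest changes were named. This was done in Cd against control, Cd+Se against Cd and Cd+Se against control. Where none passed, the 2 most abundant genes were named, for marker lists other than that of neutrophils in Cd against control only. A gene that this rule takes from the regeneration list is not reported here. The genes and lists were chosen with earlier results of these data known. The steps were tested on simulated data, with changes placed only in genes at about 1 TPM or more. Recovery of a change in Mki67, Top2a, Ccnb1, Ccna2 or Mcm2, with means under 1 TPM, was not tested. Alternatives were a pseudocount of 0.1, no filter, a mean of at least 1 TPM, quantile normalization, median centring, only the groups compared, no trend, and leaving out each library.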

Additional observations from a re-analysis of the deposited data

Results flagged for a closer look

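In 3 of the 40 sets of 4 libraries looked at (10 genes in 4 groups), 1 library stood apart by Dixon's test, with a gap to its neighbour above the 95% critical value; chance gives about 1 in 20, or 2 of 40. In control livers, Mki67 was at 0.51 TPM in control 27 and at 0.16 to 0.17 in the others, a gap of 0.971 of the range. Top2a was at 1.03 TPM in the same liver and at 0.25 to 0.31 in the others, a gap of 0.923 of the range. In Cd+Se livers, Top2a was at 1.2 TPM in Cd+Se 13 and at 0.37 to 0.45 in the others, a gap of 0.904 of the range.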

How the results depend on the processing

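Over 25 alternatives (7 planned, 16 that leave out 1 library, and 2 added after seeing the data), no called difference of the 10 genes changed sign. The number of the 10 genes called lower in Cd against control was 3, and 1 with no filter on low values (27943 genes, Ccnd1), 1 with quantile normalization (Ccnd1), and 1 (Rrm2) without control 27 and Se 39 together, an alternative chosen after seeing the data; leaving out 1 library gave 0 to 3. With median centring, or with only the groups compared, it was 2 (Ccnd1 and Rrm2), and the call of Mcm2 was lost. With a mean of at least 1 TPM, 11766 genes and 5 of the 10 were tested and 2 were called, Ccnd1 and Rrm2. Of all genes tested, 20.1% were called in the main fit, 10.9% with no filter, 22.7% with quantile normalization and 24.7% with median centring. The share was 18.5% with only the groups compared, 30.8% with a mean of at least 1 TPM and 14.9% without control 27 and Se 39. Leaving out 1 library gave 13.3% to 21.8%. With 27943 genes the adjustment runs over more tests; otherwise the cause was not tested. Cd+Se against Cd gave 0, and 0 to 1 leaving out 1 library (1 without Cd+Se 13, Rrm2, where 9.23% of all genes were called). Cd+Se against Se gave 0, 1 with median centring (Ccnd1) and 0 to 1 leaving out 1 library (Mcm2 without Se 41, Ccnd1 without Cd+Se 16). Of all genes, 1.02% were called there with median centring, 0.386% without Se 41 and 0.711% without Cd+Se 16. The other added alternative, a pseudocount of 0.1 without a trend, changed no count of the 10 genes. Differences not called in either fit changed sign in some alternatives, such as Ccnb1 in Cd against control in 6 of 24. The counts over all genes moved more. Fitting only the groups compared gave 3 genes in place of 1660 in Cd+Se against Cd, 26 in place of 98 in Cd+Se against control and 16 in place of 141 in Cd+Se against Se, and for the interaction median centring gave 465 in place of 55, the pseudocount of 0.1 without a trend 4, and leaving out 1 library 3 to 125. Without Cd+Se 14 or Cd 5, Cd+Se against Cd gave 463 and 562, and without control 29 Cd against control gave 2378 in place of 3591. No paired analysis was possible because the groups share no replicate numbers. Depth is unknown, so levels near 0.1 TPM have an error from few reads that these files cannot show.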
